A study of Mus musculus with 24 samples.

Results

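The AP-1 and Egr immediate early genes of the growth plate are described here. They were chosen by gene symbol, from a fixed set of 10 genes: Fos, Fosb, Fosl1, Fosl2, Jun, Junb, Jund, Egr1, Egr2 and Atf3. All 10 had a probe set on the array, of 23981 gene symbols that the platform annotation gives in all, and Jund had 2, so that 11 of 41345 probe sets measured them. The probe set for Fosl1 also carries the symbol Ccdc85b, and its values cannot be given to Fosl1 alone.

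The values came from 24 arrays of total RNA from the proximal tibial growth plate of 3-day-old mice, from which cells of the hypertrophic zone (HZ) or of the proliferative zone (PZ) were taken by laser capture microdissection. There were 4 groups of 6 arrays, HZ of Ezh1/2 mice, HZ of wild-type (WT) mice, PZ of Ezh1/2 mice and PZ of WT mice. Per the study's methods, Ezh1/2 mice (KO in the labels) were Col2-cre Ezh1-/- Ezh2 fl/fl, and the mating that produced them gave WT mice that carried the same Col2-cre and Ezh1-/- alleles with intact Ezh2. Ezh2 is the catalytic subunit of the complex that methylates histone H3 and silences genes, and the Col2 promoter drives Cre in cartilage, so that perichondrium, vessels and bone cells keep Ezh2. The mice were of mixed background and both sexes, and each array held tissue from 30-40 pooled sections of 1 animal.

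AP-1 is a dimer of basic leucine zipper proteins. Jun, Junb and Jund can pair with each other or with a Fos family protein (Fos, Fosb, Fosl1, Fosl2), whereas Fos proteins need a Jun partner, and Atf3 is a related zipper protein that can pair with Jun proteins. Egr1 and Egr2 are zinc finger factors of the same early response. Most of these genes are transcribed within minutes of a growth factor, a load or a stress, without new protein synthesis. In cartilage and bone, AP-1 proteins are known regulators of matrix-degrading enzymes, and Fos is needed to form osteoclasts, the cells that resorb calcified cartilage.

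The members differed strongly between the zones, and no member differed between the genotypes beyond the adjusted threshold. In WT mice, 8 of the 11 probe sets were higher in the HZ than in the PZ (limma, adjusted p under 0.05 over all probe sets), against 17.3% of all probe sets called higher and 33.2% called in either direction. In arrays labelled Ezh1/2, 9 of 11 were higher in the HZ, against 14.3% of all probe sets called higher and 29.9% called in either direction. No member was lower in the HZ. The median difference of the members was 1.77 log2 units in WT and 1.32 in arrays labelled Ezh1/2, against medians of 0.08 and 0.04 over all probe sets. A zone is a bulk sample, in which more cells of a type and more RNA per cell cannot be told apart.

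The targeted gene, the tissue and the arrays were checked once. In the PZ, Ezh2 averaged 6.46 ± 0.30 on Ezh1/2 arrays and 7.09 ± 0.17 on WT arrays (log2 RMA level, SD, n = 6 each), with no overlap between the groups and a limma adjusted p of 0.0852. In the HZ, Ezh2 averaged 6.43 ± 0.15 on arrays labelled Ezh1/2 and 6.27 ± 0.23 on WT arrays (limma, adjusted p = 0.899). Its level thus did not set the genotypes of the HZ arrays apart. In WT, Ezh2 was already lower in the HZ than in the PZ (-0.82, limma, adjusted p = 3.42e-05). The WT HZ average lay below that of the Ezh1/2 PZ arrays. Where its probes lie relative to the floxed exons is not given in the sources used here. Of 7 measured hypertrophic markers, 6 were higher in the HZ of each genotype. The other, Panx3, was lower in the HZ of arrays labelled Ezh1/2 (-0.94, adjusted p = 0.000256) and was not called in WT (-0.19, adjusted p = 0.418). Of 9 measured proliferation markers 6 (arrays labelled Ezh1/2) and 7 (WT) were lower. Arrays of a group correlated at 0.894 to 0.946 in the HZ and at 0.954 to 0.974 in the PZ, and the 3 arrays with the narrowest spread of values were HZ arrays (WT 1, WT 4 and Ezh1/2 1). Nothing in the labels ties the arrays to a scan or hybridization batch. Within a group the arrays were from separate animals, and their number, 6 a group, limits the precision. Per the methods each genotype had 6 mice in all, so that HZ and PZ arrays share animals, which the zone tests do not take into account.

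**Figure D1:**
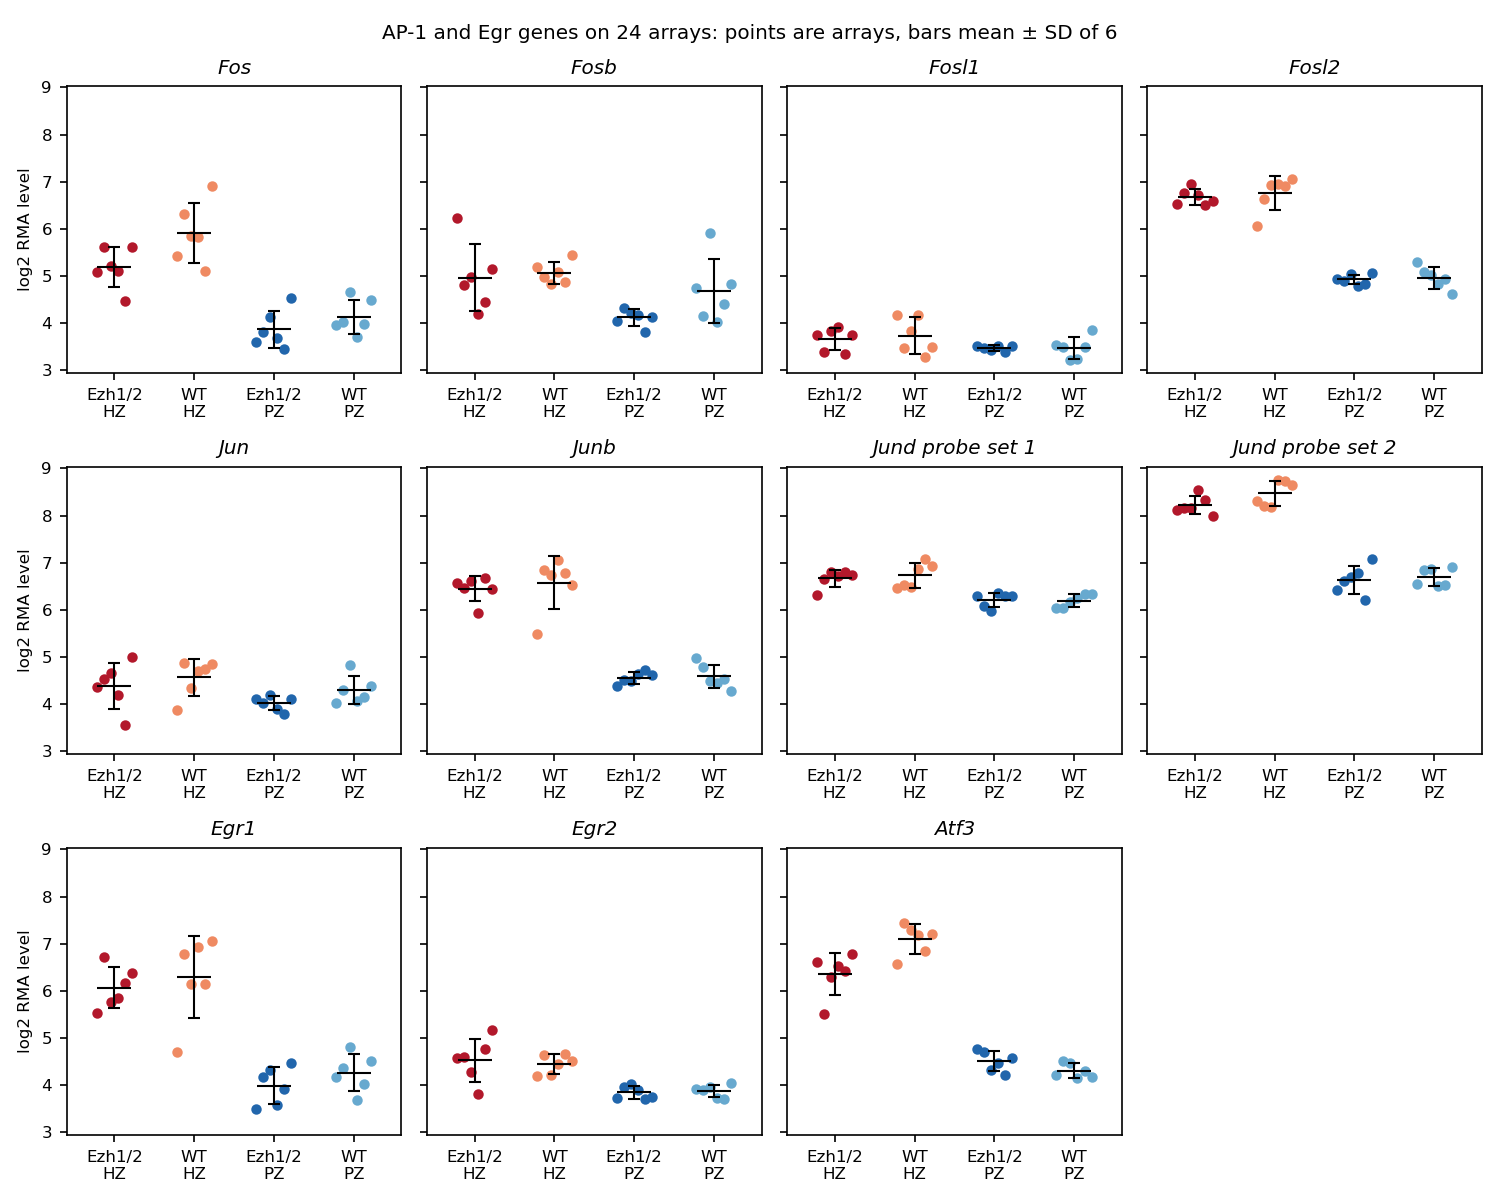
Log2 RMA levels (vertical axis) of the 11 probe sets in the 4 groups, one point an array, with the mean and SD of 6 arrays in black. Fosl2, Junb, Jund probe set 2 and Atf3 have all 12 HZ arrays above all 12 PZ arrays, whereas Fosl1, Jun and Fosb overlap.

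The windows upstream of 8 members were read from RefSeq promoter sequences (build GRCm38.p6); Fosl1 and Egr1 have no entry in the table used. The 120 bases before the annotated start are shown for 5 members, since these include the member with the largest zone difference in WT (Atf3), other members higher in the HZ (Fos, Fosl2, Egr2) and a member that did not pass the test (Jun). Egr2 has 5 annotated starts, of which 1 that holds matches is shown. Capitals mark matches to the CRE-like motif TGACNTCA, its core TGACG, the Egr motif GCGNGGGCG or the CArG box that serum response factor binds, on either strand.
Atf3, chr1:191183334-191183453, minus strand: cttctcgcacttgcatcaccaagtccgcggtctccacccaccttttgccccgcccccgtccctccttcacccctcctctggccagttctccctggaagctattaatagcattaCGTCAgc
Fos, chr12:85473770-85473889, plus strand: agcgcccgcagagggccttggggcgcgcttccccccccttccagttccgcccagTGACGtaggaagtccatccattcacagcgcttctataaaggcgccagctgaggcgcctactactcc
Fosl2, chr5:32136352-32136471, plus strand: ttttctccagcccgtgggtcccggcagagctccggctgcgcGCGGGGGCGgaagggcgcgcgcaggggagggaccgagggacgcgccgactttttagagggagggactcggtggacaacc
Egr2, chr10:67537749-67537868, plus strand: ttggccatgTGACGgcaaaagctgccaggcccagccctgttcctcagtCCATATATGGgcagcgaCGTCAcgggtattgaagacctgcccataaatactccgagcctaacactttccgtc
Jun, chr4:95052223-95052342, minus strand: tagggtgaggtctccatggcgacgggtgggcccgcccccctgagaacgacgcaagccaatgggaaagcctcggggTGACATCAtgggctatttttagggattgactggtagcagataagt
The core TGACG stood within the 250 bases before the start of Atf3, Fos, Fosb, Junb and Egr2, the CRE-like motif before Jun, and the Egr motif before Fosb and Fosl2. The CArG box was found only before Egr2. Egr2 had 5 windows in which to match, of which 3 held both TGACG and a CArG box, 1 a CArG box alone and 1 neither. These 3 windows overlap and hold the same sites, so that 1 set of sites was matched in each. None of these motifs was found before Jund. The AP-1 site TGANTCA was searched in the same windows and matched none of the 8 members. Of 32851 promoter windows of this length, 7.49% held TGACNTCA, 17.8% TGACG, 6.75% TGANTCA, 4.7% GCGNGGGCG and 1.47% a CArG box, matches to TGACNTCA and TGACG overlapping where both are present. TATAAA stood before Fos alone and in 12.4% of all windows. A match is a description of letters only.

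Among the Fos family, Fosl2 and Fos were higher in the HZ. Fosl2 encodes Fra-2, a Fos protein known to act in chondrocyte and osteoblast differentiation. It ranged between 6.51 and 6.95 (median 6.65) on HZ arrays labelled Ezh1/2 and between 6.07 and 7.06 (median 6.93) on WT HZ arrays. On PZ arrays it lay between 4.79 and 5.05 (median 4.92) in Ezh1/2 mice and between 4.61 and 5.29 (median 4.98) in WT mice. All HZ arrays lay above all PZ arrays, by 1.75 log2 units in arrays labelled Ezh1/2 (SE 0.14, 3.36-fold, adjusted p = 2.58e-09) and 1.80 in WT (SE 0.14, 3.48-fold, adjusted p = 1.35e-09).

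Fos, the founding immediate early gene, spread more within each group than Fosl2. It lay between 4.46 and 5.62 (median 5.16) on HZ arrays labelled Ezh1/2 and between 5.11 and 6.90 (median 5.83) on WT HZ arrays. On PZ arrays it lay between 3.45 and 4.53 (median 3.74) in Ezh1/2 mice and between 3.71 and 4.66 (median 3.995) in WT mice. The zones did not overlap in WT, and in Ezh1/2 mice the lowest HZ array fell below the highest PZ array. Fos was 1.32 log2 units higher in the HZ of arrays labelled Ezh1/2 (SE 0.26, adjusted p = 0.000393) and 1.77 higher in WT (SE 0.26, 3.41-fold, adjusted p = 1.23e-05).

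Fosb, a Fos protein best known from neurons and bone, passed the test only in arrays labelled Ezh1/2, and the difference between the genotypes in this did not pass a test (0.46 log2 units, SE 0.40, adjusted p = 0.971). Its HZ arrays labelled Ezh1/2 lay between 4.20 and 6.22 (median 4.90) and its WT HZ arrays between 4.83 and 5.45 (median 5.03). Its PZ arrays lay between 3.82 and 4.33 (median 4.16) in Ezh1/2 mice and between 4.03 and 5.92 (median 4.58) in WT mice. The zone difference of 0.84 in arrays labelled Ezh1/2 (SE 0.28, adjusted p = 0.0254) rested on single arrays: without HZ array 1, the highest, it was 0.59 (adjusted p = 0.0755), and without PZ array 5, the lowest, 0.78 (adjusted p = 0.0558). In WT it was 0.38 (SE 0.28, adjusted p = 0.294). The probe set shared by Fosl1 and Ccdc85b differed between the zones by 0.19 in arrays labelled Ezh1/2 and 0.26 in WT (adjusted p = 0.340 and 0.166), and its arrays lay between 3.22 and 4.18 in all 4 groups.

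Among the Jun family, Junb and Jund were higher in the HZ, and Jun did not pass the test. Junb, often described as a weaker activator than Jun that can hold back cell proliferation, lay between 5.94 and 6.68 (median 6.52) on HZ arrays labelled Ezh1/2 and between 5.48 and 7.06 (median 6.77) on WT HZ arrays. On PZ arrays it lay between 4.37 and 4.72 (median 4.57) in Ezh1/2 mice and between 4.29 and 4.97 (median 4.51) in WT mice. Every HZ array exceeded every PZ array. The zone difference was 1.89 log2 units in arrays labelled Ezh1/2 (SE 0.19, 3.71-fold, adjusted p = 8.27e-08) and 1.99 in WT (SE 0.19, 3.96-fold, adjusted p = 3.51e-08).

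Jund, which many resting cells express, was measured by 2 probe sets that gave the same direction and unequal sizes. Probe set 2 lay between 7.999 and 8.53 (median 8.16) on HZ arrays labelled Ezh1/2 and between 8.19 and 8.75 (median 8.48) on WT HZ arrays, against 6.21 to 7.07 (median 6.65) on Ezh1/2 PZ arrays and 6.52 to 6.90 (median 6.69) on WT PZ arrays. Its zone difference was 1.58 in arrays labelled Ezh1/2 and 1.78 in WT (SE 0.14 each, adjusted p = 1.20e-08 and 1.70e-09). Probe set 1 gave 0.45 in arrays labelled Ezh1/2 and 0.53 in WT (SE 0.11 each, adjusted p = 0.00394 and 0.000960). Both sets thus passed, and the size of the Jund difference depends on which is read.

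Jun, the partner that most Fos dimers are described with, differed less between the zones. It lay between 3.55 and 5.003 (median 4.45) on HZ arrays labelled Ezh1/2 and between 3.88 and 4.88 (median 4.72) on WT HZ arrays, against 3.79 to 4.19 (median 4.06) on Ezh1/2 PZ arrays and 4.03 to 4.83 (median 4.22) on WT PZ arrays. Only 3 of the 12 HZ arrays exceeded the highest PZ array. The difference was 0.37 in arrays labelled Ezh1/2 (95% confidence interval -0.04 to 0.77, adjusted p = 0.164) and 0.27 in WT (-0.13 to 0.68, adjusted p = 0.286). A rise in array level as large as that of Junb lies outside both intervals. The Jun probe set did not lie above the median of probe sets, and so dim a set limits what this shows about its RNA. Without the lowest HZ array labelled Ezh1/2 (array 5), the difference in arrays labelled Ezh1/2 was 0.53 (adjusted p = 0.0258).

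Egr1 and Egr2 were both higher in the HZ. Egr1, a factor induced by growth factors and mechanical load, lay between 5.53 and 6.72 (median 6.01) on HZ arrays labelled Ezh1/2 and between 4.71 and 7.05 (median 6.47) on WT HZ arrays. On PZ arrays it lay between 3.50 and 4.46 (median 4.05) in Ezh1/2 mice and between 3.68 and 4.81 (median 4.27) in WT mice. WT HZ array 1, at 4.71, was the only HZ array inside the PZ range, and the groups did not overlap in arrays labelled Ezh1/2. The zone difference was 2.08 in arrays labelled Ezh1/2 (SE 0.31, 4.23-fold, adjusted p = 1.53e-05) and 2.03 in WT (SE 0.31, 4.08-fold, adjusted p = 2.01e-05). Egr2, known from myelinating Schwann cells and hindbrain, was 0.68 higher in arrays labelled Ezh1/2 (SE 0.15, adjusted p = 0.00143) and 0.57 higher in WT (SE 0.15, adjusted p = 0.00616), with 11 of 12 HZ arrays above the highest PZ array.

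Atf3, a stress-induced factor of the ATF/CREB family, had the largest zone difference of the members in WT, and ranked 55 of 41345 probe sets by the size of its rise there. It lay between 5.51 and 6.79 (median 6.47) on HZ arrays labelled Ezh1/2 and between 6.57 and 7.43 (median 7.20) on WT HZ arrays. On PZ arrays it lay between 4.22 and 4.76 (median 4.52) in Ezh1/2 mice and between 4.15 and 4.52 (median 4.25) in WT mice. All HZ arrays exceeded all PZ arrays. The difference was 1.85 in arrays labelled Ezh1/2 (SE 0.17, 3.61-fold, adjusted p = 2.75e-08) and 2.79 in WT (SE 0.17, 6.91-fold, adjusted p = 3.95e-11).

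In 7 of the 11 probe sets the WT zones did not overlap (HZ above PZ), against 6.31% of all probe sets. In 5 of 11 the zones of arrays labelled Ezh1/2 did not overlap in this direction, against 6.53%. In order of the WT difference the members ran Atf3, Egr1, Junb, Fosl2, Jund probe set 2, Fos, Egr2, Jund probe set 1, Fosb, Jun and the Fosl1 set. The 95% confidence intervals of the neighbours Egr1 (1.40 to 2.66), Junb (1.59 to 2.38), Fosl2 (1.51 to 2.08), Jund probe set 2 (1.49 to 2.06) and Fos (1.24 to 2.30) overlapped, and that of Atf3 (2.43 to 3.14) lay apart from those of Junb, Fosl2, Jund and Fos and not from that of Egr1. In arrays labelled Ezh1/2, Atf3 (1.498 to 2.21) stood among these neighbours. The WT interval of Jund probe set 1 (0.30 to 0.77) did not overlap that of probe set 2 of the same gene. The order of genes by size thus also depends on the probe set read.

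Ezh1/2 and WT mice were then compared within each zone. These comparisons share arrays with the zone differences above, and the values are set side by side only. In the HZ, no member was called (limma, adjusted p under 0.05), against 0.0169% of all probe sets, which is 7 probe sets. At an unadjusted p under 0.05, 2 members were lower on arrays labelled Ezh1/2 and 0 higher, against 3.57% and 3.03% of all probe sets. No member separated the HZ groups, as 0.186% (lower) and 0.271% (higher) of all probe sets did.

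The 2 members were Atf3 and Fos. Atf3 averaged 6.36 ± 0.45 on HZ arrays labelled Ezh1/2 and 7.09 ± 0.32 on WT HZ arrays, a difference of -0.73 (SE 0.21, 95% confidence interval -1.19 to -0.28, unadjusted p = 0.00411, adjusted p = 0.434). Of the HZ arrays labelled Ezh1/2, array 2 was far lowest at 5.51, and without it the difference was -0.56 (adjusted p = 0.513). Fos averaged 5.18 ± 0.43 on HZ arrays labelled Ezh1/2 and 5.90 ± 0.64 on WT HZ arrays (SD, n = 6 each), a difference of -0.72 (SE 0.28, interval -1.33 to -0.11, unadjusted p = 0.0239, adjusted p = 0.661). The groups overlapped for both genes. Over the alternatives tried the adjusted p ranged between 0.0540 and 0.677 for Atf3 and between 0.198 and 0.831 for Fos, and none of these passed 0.05.

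None of the other HZ differences reached an unadjusted p of 0.05. Jund probe set 2 differed by -0.26 (interval -0.56 to 0.05), Egr1 by -0.22 (-0.99 to 0.54), Jun by -0.18 (-0.69 to 0.32), Junb by -0.12 (-0.62 to 0.38) and Fosl2 by -0.09 (-0.44 to 0.26). Fosb (-0.10), the Fosl1 set (-0.07) and Jund probe set 1 (-0.06) were also slightly below WT, and Egr2 (0.09) slightly above, each by less than its error. For Fosl2, Egr1 and Junb a difference of the size of the gene's own zone difference lies outside the interval. The interval of Egr1 is wide. WT HZ array 1 was low for several members, and without it Egr1 differed by -0.54, Junb by -0.34 and Jun by -0.32 (limma, none called). On the same arrays, 5 of 12 chondrocyte markers were lower and 2 of 8 osteoclast markers higher at an unadjusted p under 0.05, with 0 called. The chondrocyte marker average lay between 8.93 and 10.05 on HZ arrays labelled Ezh1/2 and between 9.70 and 10.30 on WT HZ arrays, while the osteoclast average lay between 6.16 and 7.35 and between 5.43 and 6.71. The skeletal muscle average lay between 4.58 and 9.78 and between 4.73 and 8.01, with 0 of 10 markers called. The part of these cells in the Fos and Atf3 values was not tested.

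In the PZ, 0 members were called by limma, against 0.411% of all probe sets. At an unadjusted p under 0.05, 1 member was lower in Ezh1/2 mice and 0 higher, against 3.33% and 4.15%. No member separated the PZ groups, as 0.177% (lower) and 0.658% (higher) of all probe sets did. That member was Fosb, which averaged 4.12 ± 0.18 in Ezh1/2 PZ and 4.68 ± 0.69 in WT PZ (difference -0.56, SE 0.26, unadjusted p = 0.0493, adjusted p = 0.665). WT PZ array 3, at 5.92, was the highest of its group, and the WT values spread more widely than those of Ezh1/2 mice. Without this array the Fosb difference was -0.31 (limma, adjusted p = 0.736). Jun differed by -0.28 (SE 0.13, interval -0.56 to 0.01), Fos by -0.27 (SE 0.20, -0.70 to 0.16) and Egr1 by -0.27 (SE 0.21, -0.72 to 0.17), and without WT PZ array 3 by -0.17, -0.16 and -0.16. The PZ averages of all 3 lay below the medians of the PZ arrays (4.33 to 4.42), so that dim levels limit what this shows. Atf3 lay the other way, at 4.51 ± 0.21 in Ezh1/2 PZ and 4.30 ± 0.16 in WT PZ (difference 0.20, SE 0.11, interval -0.03 to 0.44, adjusted p = 0.735). The other PZ differences, of Jund probe set 2 (-0.06), Fosl2 (-0.04), Egr2 (-0.03), Junb (-0.03), the Fosl1 set (near 0) and Jund probe set 1 (0.02), were smaller than their errors.

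Whether the genotype difference itself depended on the zone was tested over all 24 arrays. No member was called, against 0.029% of all probe sets. At an unadjusted p under 0.05, 1 member had a more negative effect in the HZ, against 3.24%. This was Atf3, whose genotype difference was 0.94 log2 units more negative in the HZ than in the PZ (-0.94, SE 0.24, 95% confidence interval -1.44 to -0.43, unadjusted p = 0.000804, adjusted p = 0.306). By unadjusted p it ranked 107 of 41345 probe sets. The Fos value was -0.45 (SE 0.36, adjusted p = 0.962), and those of the other 9 probe sets lay between -0.19 (Jund probe set 2) and 0.46 (Fosb).

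**Figure D2:**
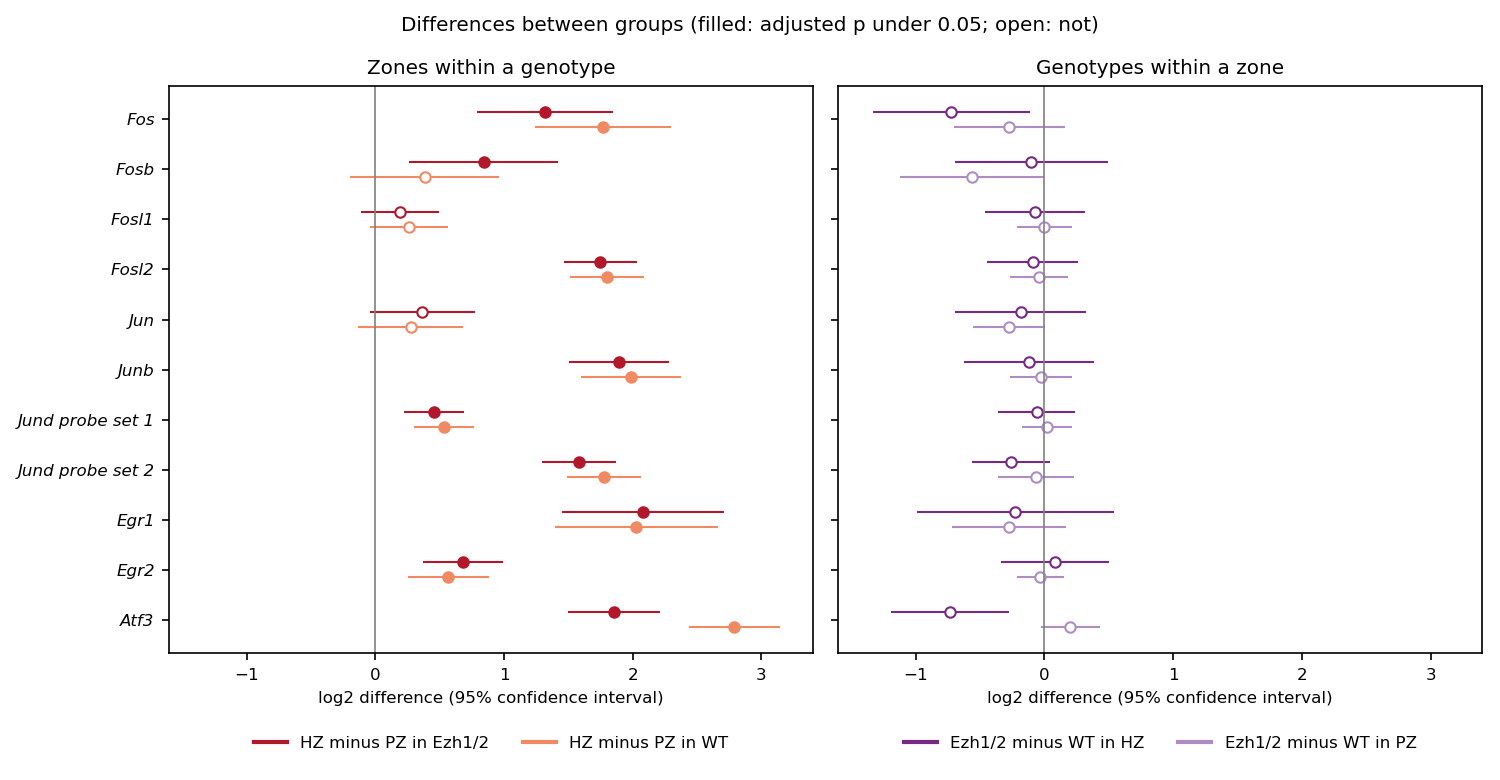
Log2 differences (horizontal axis) with 95% confidence intervals for each probe set, between the zones within a genotype (left) and between Ezh1/2 and WT within a zone (right), filled where the adjusted p is under 0.05. Atf3 has a zone difference of 1.85 in arrays labelled Ezh1/2 and 2.79 in WT, and no point in the right panel is filled.

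Other genes of the same response were read from lists of known function. As background for these and the lists below, 14.3% of all probe sets were called higher in the HZ of arrays labelled Ezh1/2, and 29.9% in either direction. In WT these shares were 17.3% and 33.2%. Of 21 other immediate early transcription factors, 14 were higher and 3 lower in the HZ of arrays labelled Ezh1/2, and 15 higher and 3 lower in WT (median difference 0.62 and 0.70, against 0.04 and 0.08 over all probe sets). Btg2, an antiproliferative factor, was 0.62 higher in arrays labelled Ezh1/2 and 1.77 higher in WT (adjusted p = 0.0300 and 1.0e-06). Hes1, a Notch target, rose by 1.62 in arrays labelled Ezh1/2 and 1.40 in WT, and Klf6, a zinc finger factor, by 1.16 and 1.15. Nr4a1, an orphan nuclear receptor induced with Fos, rose by 0.65 in arrays labelled Ezh1/2 and 0.85 in WT. Myc, a driver of proliferation that is also an early response gene, went the other way and was lower in the HZ, with a difference of -2.07 in arrays labelled Ezh1/2 (adjusted p = 2.2e-10) and -2.05 in WT (adjusted p = 2.3e-10). Id1 and Id2, inhibitors of differentiation factors, were the other 2 lower in both.

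Most genes that feed back on the early response or carry it to other cells were higher in the HZ. Of 30 measured, 21 were higher and 1 lower in the HZ of arrays labelled Ezh1/2, and 18 higher and 0 lower in WT. The phosphatase Dusp5, which inactivates ERK kinases, was 2.60 higher in arrays labelled Ezh1/2 and 3.01 higher in WT. Zfp36 and Zfp36l1, which destabilize early response mRNAs, were 2.70 and 2.91 higher in arrays labelled Ezh1/2, and 2.73 and 2.65 higher in WT. Ptgs2, the inducible cyclooxygenase, was 4.12 higher in arrays labelled Ezh1/2 and 4.87 higher in WT. The kinase Sgk1 rose by 2.57 and 2.35 and Trib1, a pseudokinase, by 1.11 and 1.22. The gene lower in arrays labelled Ezh1/2 was Ccn1, a secreted matrix protein, at -0.70 (adjusted p = 0.00058), against -0.21 in WT (adjusted p = 0.26).

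Other bZIP and Egr family factors moved in both directions. Of 19 measured other bZIP factors, 3 were higher and 2 lower in arrays labelled Ezh1/2, and 6 higher and 1 lower in WT, with medians of 0.05 and 0.14. Over all probe sets, 29.9% were called in either direction in arrays labelled Ezh1/2 and 33.2% in WT. Calls in both directions are thus not particular to these factors. Maf, a large bZIP factor needed for terminal chondrocyte differentiation, was 3.13 higher in arrays labelled Ezh1/2 and 1.87 higher in WT, and Creb3l2, a factor of collagen secretion, was lower (-1.85 and -1.84). Mafk was 0.05 higher in arrays labelled Ezh1/2 (adjusted p = 0.76) and 0.46 higher in WT (adjusted p = 0.0029), and Creb5 0.92 and 0.68 higher (adjusted p = 0.0088 and 0.045). Of 6 other Egr family factors and corepressors, 3 were higher and 1 lower in arrays labelled Ezh1/2, and 2 higher and 1 lower in WT. Egr3 was 0.83 and 0.80 higher, Egr4 0.31 and 0.37 higher, and Sp1 lower (-0.33 and -0.44), each with the value of arrays labelled Ezh1/2 before that of WT. Nab2, a corepressor of Egr proteins, was 0.46 higher in arrays labelled Ezh1/2 (adjusted p = 0.048) and -0.06 in WT (adjusted p = 0.80).

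Kinases and factors that act above the members did not rise as a list. Of 21 measured, 4 were higher and 6 lower in arrays labelled Ezh1/2, and 3 higher and 6 lower in WT. Fgfr1, the FGF receptor of hypertrophic cartilage, was 3.08 higher in arrays labelled Ezh1/2 and 3.02 higher in WT, and Pth1r, the receptor of parathyroid hormone-related protein, 0.92 and 1.32 higher. Fgfr3, the FGF receptor of proliferating chondrocytes, was lower (-1.20 and -0.52), as was Mapk14, the p38 alpha kinase (-0.43 and -0.78). Srf, which binds the CArG box, differed by 0.28 in arrays labelled Ezh1/2 and by -0.04 in WT (adjusted p = 0.27 and 0.88).

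Of 18 measured growth plate genes known to carry AP-1 sites, 13 were higher and 1 lower in arrays labelled Ezh1/2, and 11 higher and 2 lower in WT, several of them markers of hypertrophy. Mmp13, the collagenase of the lower HZ, was 4.60 higher in arrays labelled Ezh1/2 and 3.78 higher in WT, Mmp9, an osteoclast gelatinase, 4.11 and 3.45 higher, Col10a1 3.65 and 3.27 higher and Alpl 2.07 and 2.77 higher. Hmox1, which degrades heme, rose by 1.99 and 2.19, and Tgfb1 by 1.61 and 1.56. Ccnd1, a cell cycle gene, was lower (-1.53 and -1.15), and it was the only gene on the 7 lists called between the genotypes, 0.73 higher in Ezh1/2 PZ than in WT PZ (adjusted p = 0.024). Heat shock genes, which encode chaperones, moved both ways: of 10 measured, 1 was higher and 3 lower in the HZ of each genotype. Hspb1 was 1.48 higher in arrays labelled Ezh1/2 and 1.24 higher in WT, whereas the mitochondrial chaperonins Hspd1 (-0.90 and -1.28) and Hspe1 (-0.75 and -0.92) and Hsph1 (-0.56 and -0.75) were lower.

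**Figure D3:**
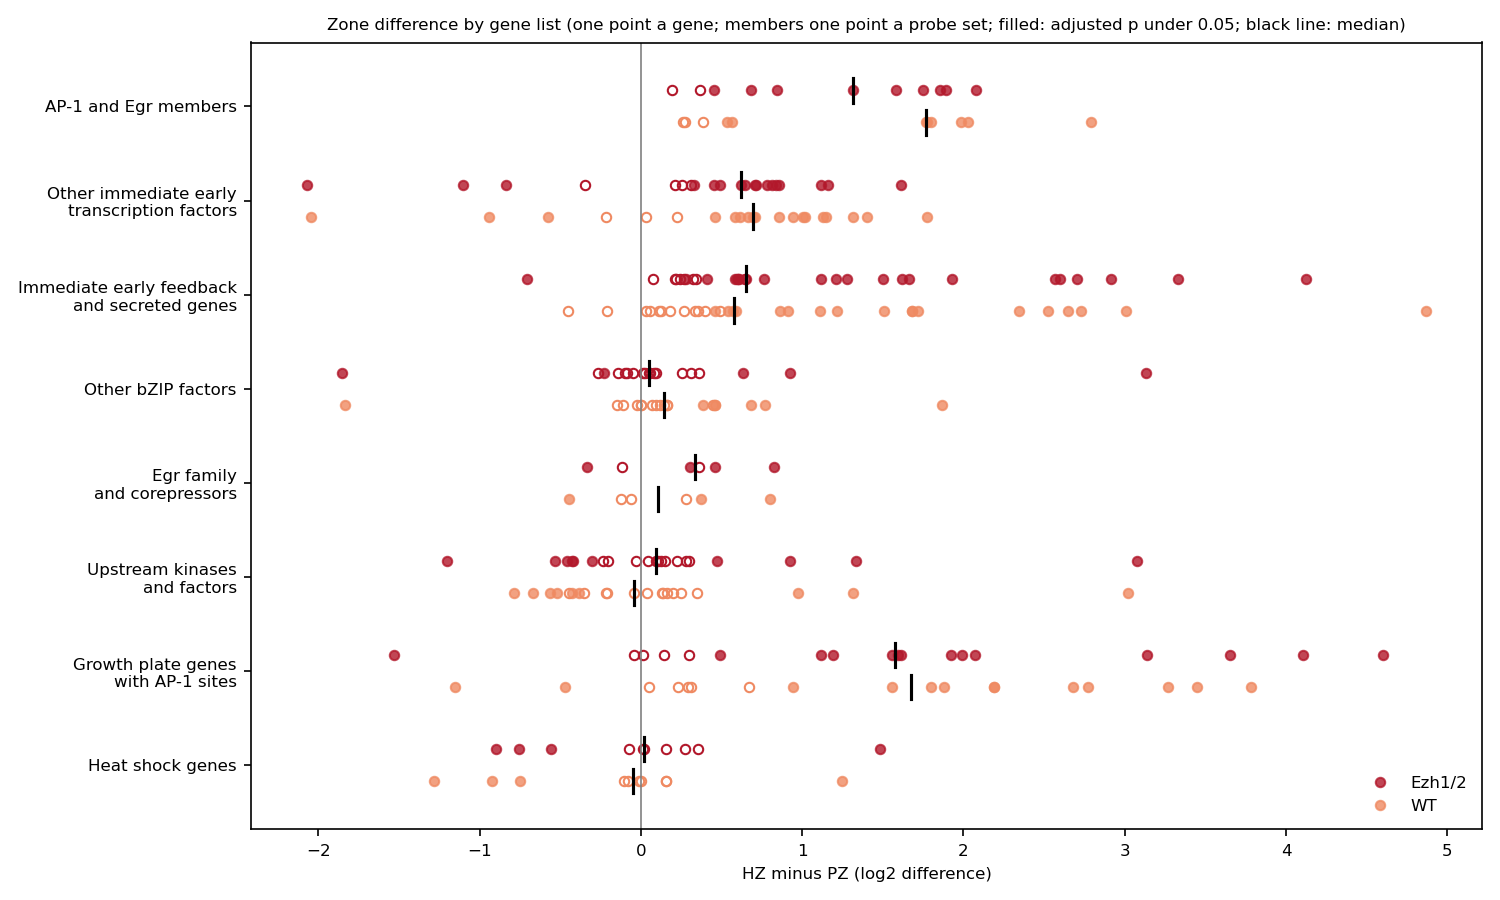
HZ minus PZ log2 difference (horizontal axis) of each gene by list, arrays labelled Ezh1/2 above WT, filled where the adjusted p is under 0.05, with the list's median as a black line. The members' medians stand at 1.32 in arrays labelled Ezh1/2 and 1.77 in WT, while the heat shock genes have medians near 0 (0.02 and -0.05).

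Markers of several other cell types moved with the zones too. All 10 endothelial markers were called higher in the HZ of both genotypes. Of all probe sets, 14.3% were called higher in arrays labelled Ezh1/2 and 17.3% in WT. Their average lay between 5.10 and 6.27 on HZ arrays labelled Ezh1/2, between 4.32 and 6.21 on WT HZ arrays, between 3.79 and 4.13 on Ezh1/2 PZ arrays and between 3.73 and 4.77 on WT PZ arrays. Of 8 osteoclast markers, 8 were higher in arrays labelled Ezh1/2 and 6 in WT. Of 12 myeloid markers, 6 were higher in each genotype, and of 2 measured erythroid markers none was called. The osteoclast average lay between 6.16 and 7.35 on HZ arrays labelled Ezh1/2, between 5.43 and 6.71 on WT HZ arrays, between 4.30 and 5.39 on Ezh1/2 PZ arrays and between 4.01 and 5.97 on WT PZ arrays. Of 10 skeletal muscle markers, 0 were called between the zones. Their average lay between 4.58 and 9.78 on HZ arrays labelled Ezh1/2 and between 4.73 and 8.01 on WT HZ arrays. On PZ arrays it lay between 4.61 and 8.05 in Ezh1/2 mice and between 4.61 and 8.01 in WT mice. The perichondrium and fibroblast average lay between 5.36 and 8.45 on HZ arrays labelled Ezh1/2 and between 5.08 and 7.04 on WT HZ arrays. RMA levels have no true zero, and no defining marker can be called absent from them. The part of these cells in the zone difference of the members was not tested.

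WT HZ array 1 had the lowest endothelial average of the 12 HZ arrays, 4.32. This lies within the range of the WT PZ arrays only through WT PZ array 1, at 4.77. The next highest PZ average was 4.13, on Ezh1/2 PZ array 6. WT HZ array 1 also had the narrowest spread of values and the highest erythroid average, 6.61. Its Atf3 (6.57), Fosl2 (6.07), Junb (5.48), Jund probe set 2 (8.31) and Fos (5.43) values, like those of Jund probe set 1 (6.46), Egr2 (4.19) and the Fosl1 set (4.18), were above those of every PZ array. Its Egr1 (4.71), Jun (3.88) and Fosb (5.18) lay within the PZ range. These are the values of 1 array.

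Within the HZ, each array's deviation from its group mean was set against that of the marker averages, for 11 probe sets and 10 marker lists (12 arrays, 110 relations, permutation of arrays within genotype, 100000 draws, two-sided). The lowest adjusted p for r, 0.163, was shared by relations with several lists. With the endothelial average these were Fos, Egr1 and Jun (r = 0.706 for Jun). Jun and Egr1 also shared it with the osteoclast average (0.745 and 0.731). Junb shared it with the erythroid (-0.849) and the hypertrophic average (0.695). The average of the members gave r = 0.838 with the endothelial and 0.828 with the osteoclast average (not tested). None of the relations passed the adjustment over the 110. The closest was Fos with the endothelial average, with Pearson's r = 0.853 (permutation p = 0.00172, adjusted p = 0.163) and Spearman's rho = 0.881 (permutation p = 0.00087, adjusted p = 0.0957). Without the 2 arrays farthest from the median endothelial value it was 0.877. Egr1 followed, with r = 0.813 (permutation p = 0.00543, adjusted p = 0.163) and rho = 0.741 (permutation p = 0.0107, adjusted p = 0.535), and r = 0.541 without those 2 arrays. For Atf3 the values were r = 0.283 (permutation p = 0.362, adjusted p = 0.845) and rho = 0.406 (permutation p = 0.209, adjusted p = 0.805), with r = -0.05 without the 2 arrays, and for Jund probe set 2 r = -0.14 (permutation p = 0.705, adjusted p = 0.881) and rho = -0.22 (permutation p = 0.518, adjusted p = 0.983), with r = -0.62 without them.

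**Figure D4:**
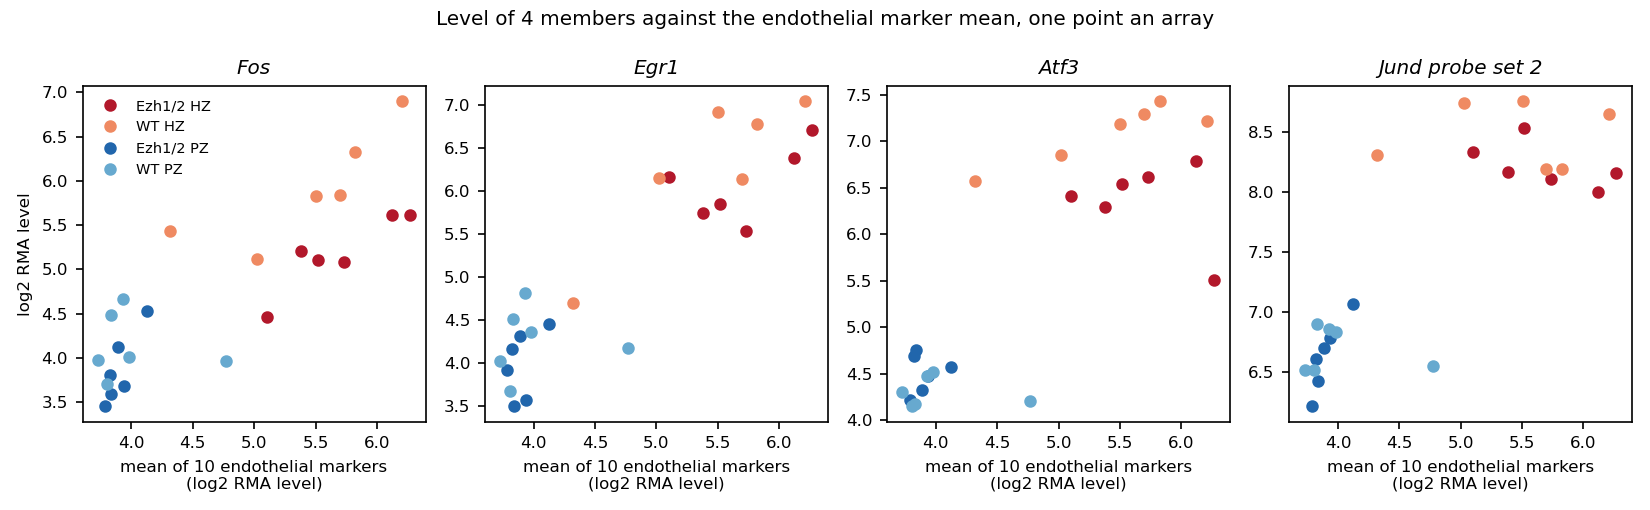
Log2 RMA level of Fos, Egr1, Atf3 and Jund probe set 2 (vertical axes) against the average of 10 endothelial markers on the same array (horizontal axis), one point an array, coloured by group. Within the HZ, the deviations from the group means gave r = 0.853 for Fos (adjusted p = 0.163) and r = -0.14 for Jund probe set 2 (adjusted p = 0.881), neither past the adjustment.

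Few pairs of members varied together beyond the adjusted threshold. Over the 24 arrays, with group means taken out and arrays permuted within their group, 45 pairs of members were compared. Fos and Jun varied together, with r = 0.675 (permutation p = 0.0009, adjusted p = 0.0405) and rho = 0.681 (permutation p = 0.0007, adjusted p = 0.0158), and r = 0.717 without the 2 arrays farthest from the median Fos deviation. This was the only pair of 45 whose Pearson's r passed the adjustment. Fos and Egr1 gave r = 0.664 (permutation p = 0.00311, adjusted p = 0.0700) and rho = 0.719 (permutation p = 0.00027, adjusted p = 0.0122), with r = 0.595 without those arrays. Fosl2 and Junb, with r = 0.662 (permutation p = 0.0287, adjusted p = 0.215) and rho = 0.371 (permutation p = 0.108, adjusted p = 0.457), fell to r = 0.225 without the 2 farthest arrays. The value over the 24 arrays thus depended on those. In the PZ alone, r for Fosl2 and Junb was 0.693, and in the HZ alone 0.662 (not tested). WT HZ array 1 had the lowest average deviation over the members, -0.49, with 2 of 10 genes above the group mean. WT PZ array 3 had the highest, 0.30, with 8 of 10 above. WT PZ array 4 had 0 of 10 above, and WT PZ array 5 and Ezh1/2 PZ array 5 had 1. Ezh1/2 PZ array 6 and WT HZ array 4 had 9 above. Within the PZ alone, r of the pairs lay between -0.471 (Jun and Junb) and 0.861 (Fos and Egr1). These PZ values were not tested.

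Probe sets with 1 symbol were searched, leaving out predicted genes, clone names, pseudogenes and microRNAs. The genes among them whose deviations were most like the average of the members over the 24 arrays were named with no test. They were Ctla2a (r = 0.794), Heyl (0.777), Tmem204 (0.762), Scarf1 (0.744), Sstr2 (0.736), Morrbid (0.722), Notch4 (0.722) and Plxna2 (0.720). All 8 were called higher in the HZ of both genotypes, against 14.3% (arrays labelled Ezh1/2) and 17.3% (WT) of all probe sets. Among them, Ctla2a was higher by 1.98 in arrays labelled Ezh1/2 and 1.68 in WT, and Sstr2 by 1.998 and 2.08. None was called between the genotypes.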

How the data were processed

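RNA was measured on 24 Affymetrix mouse gene arrays. Per the study's methods and the labels, the authors amplified the RNA, imported the scans into Partek, corrected the background, normalized and summarized the probes (RMA, robust multi-array average), and deposited log2 values for 41345 probe sets, with no counts or detection calls. Such values compress folds, and depth does not apply.

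Groups came from the sample titles. The platform annotation gave names: 23521 probe sets have 1 symbol, 1820 several and 16004 none. limma (version 3.58.1, R 4.3.3) was fitted over all probe sets with moderated variances, two-sided, with Benjamini-Hochberg adjustment over all of them, and calls made at an adjusted p under 0.05. Genotypes were compared within the 12 arrays of a zone, and zones and the interaction over 24 arrays with 4 group means. The fit was tested on simulated data. The probe set with the highest mean stood for a list gene. Other genes were named from each list by the lowest p (up to 4), and further genes of the lists were named as examples after their values were seen. The members and lists were chosen with earlier results of these data known. The labels do not tie a replicate number to an animal. In WT the sex-linked genes differed between the zones for numbers 3 and 5, so the number was not the animal there; in Ezh1/2 they matched for all 6 numbers, same-numbered HZ and PZ arrays correlating at 0.07 to 0.19 with 5 of 6 closest to their own number. The replicate block was therefore an alternative only. In the zone and interaction fits it joined arrays of the same genotype and number. In the genotype comparisons it joined Ezh1/2 and WT arrays of the same number, which are different mice. Permutation tests of correlations across arrays were added after other results had been seen. Alternatives were other normalizations, a filter on dim probe sets, array weights, blocks and arrays left out.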

Additional observations from a re-analysis of the deposited data

Results flagged for a closer look

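Of 44 sets of 6 arrays (11 probe sets in 4 groups), 3 held an array far from the others of its group, where chance gives about 1 in 20. Junb was 5.94 on HZ array 4 labelled Ezh1/2, with the nearest array of that group at 6.44. Junb was 5.48 on WT HZ array 1, with the nearest at 6.52. Jund probe set 1 was 6.32 on HZ array 1 labelled Ezh1/2, with the nearest at 6.65. All 3 arrays were the lowest of their group.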

How the results depend on the processing

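In each alternative tried but the filter on dim probe sets, 8 members were called between the zones in WT, and in all of them 0 between the genotypes in either zone or in the interaction. Leaving out 1 array gave 8 to 10 called members between the zones of arrays labelled Ezh1/2, against 9 with all arrays: the Fosb call was lost without HZ array 1 or PZ array 5, and Jun was gained without HZ array 5. With the 3 arrays of narrowest spread left out, an alternative chosen after seeing the data, Fosb was 0.59 (adjusted p = 0.0832) and 8 members were called. The filter on dim probe sets removed the Fosl1 set, Jun and Egr2, so that 8 of 11 were tested, of which 8 were called between the zones of arrays labelled Ezh1/2 and 7 in WT.

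Over all probe sets, counts moved more. Genotype calls in the PZ were 170 as reported, 89 in 1 fit of all 24 arrays, 83 with the replicate block and 97 to 161 with 1 array left out (97 without WT PZ array 3). In the HZ they were 7, against 202 in 1 fit of all 24 arrays, 1 with the replicate block, 11 after quantile normalization, 0 without the 3 arrays of narrowest spread and 0 to 6 with 1 array left out. Interaction calls were 12, against 19 with the replicate block, 7 after quantile normalization, 7 with the filter and 7 to 20 with 1 array left out. Zone calls in WT were 13707, against 9116 of 20672 with the filter, and 11239 to 14636 with 1 array left out, and in arrays labelled Ezh1/2 10615 to 13106. The cause was not tested, except that the filter tests fewer probe sets. The replicate block changed no member's call, and same-numbered arrays correlated at -0.13 to 0.28. For the genotype calls the block paired different mice by their label number, and does not account for animals. Dim probe sets, by the mean over the 24 arrays the Fosl1 set, Jun and Egr2, limit what a missing difference shows. In the PZ this limit also holds for others. The PZ averages of Fos (3.86 in Ezh1/2 mice and 4.14 in WT) and Egr1 (3.99 and 4.26) lay below the medians of the PZ arrays (4.33 to 4.42). So did Atf3 in WT PZ (4.30) and Fosb in Ezh1/2 PZ (4.12).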
